A study of Mus musculus with 32 samples.

Results

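The average effect of losing Car6 in the airway was described across 8807 genes that were measured in both lung and trachea, in mice lacking Car6 and in wild-type mice. Car6 encodes carbonic anhydrase VI, the secreted member of the family of enzymes that interconvert carbon dioxide and bicarbonate. A gene was included when its signal stood above the negative control beads (detection p-value under 0.01) in at least 6 samples of each tissue. Of the 25697 probes on the array, 11440 met this rule. Each symbol was represented by its brightest such probe, which left 8166 named genes and 641 probes without a gene name. For each gene the effect is the mean of the change in lung and the change in trachea, fitted in 1 model of all samples.

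The groups were 6 Car6-/- lungs, 8 wild-type lungs, 6 Car6-/- tracheas and 8 wild-type tracheas, 28 samples in all. Every animal was a C57BL/6 male aged 2 months, per the labels, and Illumina mouse bead arrays were hybridised with biotin-labelled product from 150 ng of total RNA. A second array was run for 4 samples and averaged with the first. Whether equal numbers mark organs of 1 animal, how the Car6-/- line was made and the hour of dissection are not stated in the labels. The p-values measure the spread between the samples as numbered. All values are normalized log2 intensities, and every change is a log2 difference, Car6-/- minus wild type. A gene was called when its average change passed a Benjamini-Hochberg adjusted p of 0.05 in limma over all 8807 genes.

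Several of the genes that changed in both tissues belong to the circadian clock, which runs in most cells. In that loop BMAL1, the product of Arntl, and CLOCK activate genes through E-boxes. Their targets include the nuclear receptors REV-ERBα and REV-ERBβ, made from Nr1d1 and Nr1d2, which repress Arntl and Nfil3 through ROR response elements. The activators DBP and TEF and the repressor NFIL3 then compete for D-boxes in output genes.

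The promoters of the genes on which the results below turn are shown here, to set the elements their regulators are known to bind beside the values. The windows run over 250 bases before and 50 bases after the start of the gene, from RefSeq for GRCm38.p6, written 5′ to 3′ along the gene. Capitals mark the elements found, on either strand. They are the ROR response element TAGGTCA, the E-box CACGTG, the heat shock element GAANNTTCNNGAA and the interferon response element GAAANNGAAA. Of 32851 mouse promoters of this length, 2.61% held the ROR response element, 7.15% the E-box, 0.603% the heat shock element and 3.44% the interferon response element. In Arntl (chr7:113207261-113207560, plus strand) the ROR response element lies 30 bases after the start. In Nfil3 (chr13:52980990-52981289, minus strand) it lies 12 bases before the start, on the opposite strand, and so reads as its complement. Among called genes, the window of Vmac, not printed here, also holds this element, and Vmac was called lower with −0.30. The Tef window (chr15:81802423-81802722, plus strand) holds an E-box. The Chordc1 window (chr9:18292017-18292316, plus strand) holds 3 heat shock elements that overlap. The Hsph1 window (chr5:149636287-149636586, minus strand) holds an E-box followed by a heat shock element. The Bst2 window (chr8:71537423-71537722, minus strand) holds a heat shock element and 2 interferon response elements that overlap. The other elements also lay in windows of called genes not printed here. The E-box lay in those of Fastkd1, Timm10, Crls1, Phc2, Ccar1, Timm9 and Rce1, which were called higher. It also lay in those of Agtrap, Ntpcr, Slc39a11 and Tbc1d7, which were called lower. The Timm9 window holds a heat shock element, and those of Fastkd1 and Ccdc92, called higher, an interferon response element. Not every called gene with a name had a window to search. A match is a description of the letters only. The windows of Dbp, Usp2, Nr1d2 and Cacybp held none of the 4 elements.
Arntl: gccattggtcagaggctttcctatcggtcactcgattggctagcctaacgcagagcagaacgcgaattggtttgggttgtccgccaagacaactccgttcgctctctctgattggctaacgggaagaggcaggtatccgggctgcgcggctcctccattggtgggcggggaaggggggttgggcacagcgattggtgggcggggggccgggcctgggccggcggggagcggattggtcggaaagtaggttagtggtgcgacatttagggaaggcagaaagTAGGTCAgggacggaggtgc
Nfil3: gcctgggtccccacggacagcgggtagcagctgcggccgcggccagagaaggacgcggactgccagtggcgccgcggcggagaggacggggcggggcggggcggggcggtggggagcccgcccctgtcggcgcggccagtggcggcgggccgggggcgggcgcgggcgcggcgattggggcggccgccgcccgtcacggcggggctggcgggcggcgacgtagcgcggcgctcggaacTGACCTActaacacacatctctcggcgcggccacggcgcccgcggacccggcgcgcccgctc
Tef: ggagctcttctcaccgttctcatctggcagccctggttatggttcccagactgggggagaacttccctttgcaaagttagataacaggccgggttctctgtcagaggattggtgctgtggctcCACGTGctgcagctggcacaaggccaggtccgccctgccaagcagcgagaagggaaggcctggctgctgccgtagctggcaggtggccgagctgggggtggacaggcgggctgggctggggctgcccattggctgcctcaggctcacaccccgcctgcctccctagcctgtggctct
Chordc1: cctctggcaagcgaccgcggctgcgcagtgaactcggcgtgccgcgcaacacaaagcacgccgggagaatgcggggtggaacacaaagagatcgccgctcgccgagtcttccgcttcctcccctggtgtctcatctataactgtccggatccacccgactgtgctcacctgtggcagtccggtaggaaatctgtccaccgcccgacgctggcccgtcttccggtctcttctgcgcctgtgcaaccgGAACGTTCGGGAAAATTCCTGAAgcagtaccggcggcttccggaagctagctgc
Hsph1: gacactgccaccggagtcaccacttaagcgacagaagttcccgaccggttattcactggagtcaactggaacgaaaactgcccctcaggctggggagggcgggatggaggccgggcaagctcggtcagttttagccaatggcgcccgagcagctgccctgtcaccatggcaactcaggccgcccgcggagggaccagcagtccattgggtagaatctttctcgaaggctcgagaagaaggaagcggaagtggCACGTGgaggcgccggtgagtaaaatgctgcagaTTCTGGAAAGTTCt
Bst2: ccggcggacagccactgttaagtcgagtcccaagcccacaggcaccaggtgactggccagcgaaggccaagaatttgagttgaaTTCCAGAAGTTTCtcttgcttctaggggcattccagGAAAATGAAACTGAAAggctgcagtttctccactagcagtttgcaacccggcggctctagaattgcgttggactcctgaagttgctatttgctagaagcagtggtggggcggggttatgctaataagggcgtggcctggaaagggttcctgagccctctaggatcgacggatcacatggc

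Arrays detected 11735 to 13139 probes each. Surfactant and other alveolar type 2 genes averaged 11.58 to 11.78 in Car6-/- lungs and 11.61 to 11.75 in wild-type lungs. In trachea the alveolar type 2 genes averaged 7.47 to 10.49 in Car6-/- samples, of which 4 of 6 lay above all wild-type samples, and 7.75 to 8.39 in wild-type samples. Cartilage genes averaged 10.20 to 11.43 in Car6-/- tracheas and 10.26 to 12.08 in wild-type tracheas. Car6 itself was not detected on any of the 32 arrays. Its probe (ILMN_1257323) had median signals of 89.9 in Car6-/- lungs and 85.7 in wild-type lungs, and of 89.5 in Car6-/- tracheas and 88.6 in wild-type tracheas. The probe therefore does not check the genotype labels, and no fold change is given for it.

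The Car6-/- tracheas varied more than the other groups, with a median SD per gene of 0.32, against 0.25 in wild-type tracheas; the lungs had 0.17 in Car6-/- and 0.16 in wild type. Adipocyte genes (12 tested) averaged 9.52 to 11.53 in Car6-/- tracheas, against 9.61 to 9.99 in wild-type tracheas. Thyroid and parathyroid genes (3 tested) averaged 5.05 to 11.44 in Car6-/- tracheas and 10.65 to 11.67 in wild-type tracheas, and skeletal muscle genes (18 tested) averaged 8.96 to 11.87 in Car6-/- tracheas and 11.53 to 12.45 in wild-type tracheas. B cell genes (7 tested) reached 9.63 in 1 Car6-/- trachea, against at most 6.57 in wild-type tracheas. Car6-/- tracheas 1, 2, 6 and 7 lay above every wild-type trachea in the adipocyte genes, while Car6-/- tracheas 4 and 5 lay within or below the wild-type range. In bulk tissue fewer cells of a type and less RNA per cell cannot be told apart. Results are therefore also given without the 4 tracheas, a setting chosen after the data had been seen.

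Loss of Car6 was accompanied by changes in 109 genes on average over the tissues, 71 higher and 38 lower. These were 0.806% and 0.431% of the genes tested, and 1.24% together. Increases ranged up to 1.09 on the log2 scale with a median size of 0.39, and decreases up to 1.86 with a median size of 0.51. After median scaling of the arrays, used instead of quantile normalization, the split was 118 higher and 25 lower. The number called ranged from 48 without Car6-/- trachea 2 to 825 without Car6-/- trachea 4 when 1 sample at a time was left out. At an unadjusted p of 0.05, 1575 genes passed, where 440 would do so by the number tested. No tested gene had groups that were free of overlap in both tissues (0% of genes), although 20 genes did in lung and 19 in trachea.

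The sign was shared by lung and trachea in 107 of the 109 called genes, against 4722 of all 8807, but calling on the average favours such genes. A stricter subset of 61 genes, 40 higher and 21 lower (0.693% of those tested), had the same sign and an unadjusted p under 0.05 in each tissue. A further 45 reached that p in trachea only. The remaining 3 did so in lung only: Cacybp, Dclk3, which encodes a kinase, and the unnamed probe ILMN_3023451. The change was larger in trachea for 90 of the 109 genes and larger in lung for 19. A direct test of the difference between tissues called 0 genes in limma, with a lowest adjusted p of 0.201 and 1131 genes at an unadjusted p under 0.05; with sample weights it called 7. Without Car6-/- trachea 4 it called 502 genes, without Car6-/- trachea 5 it called 102, and without wild-type trachea 3 it called 1.

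**Figure D1:**
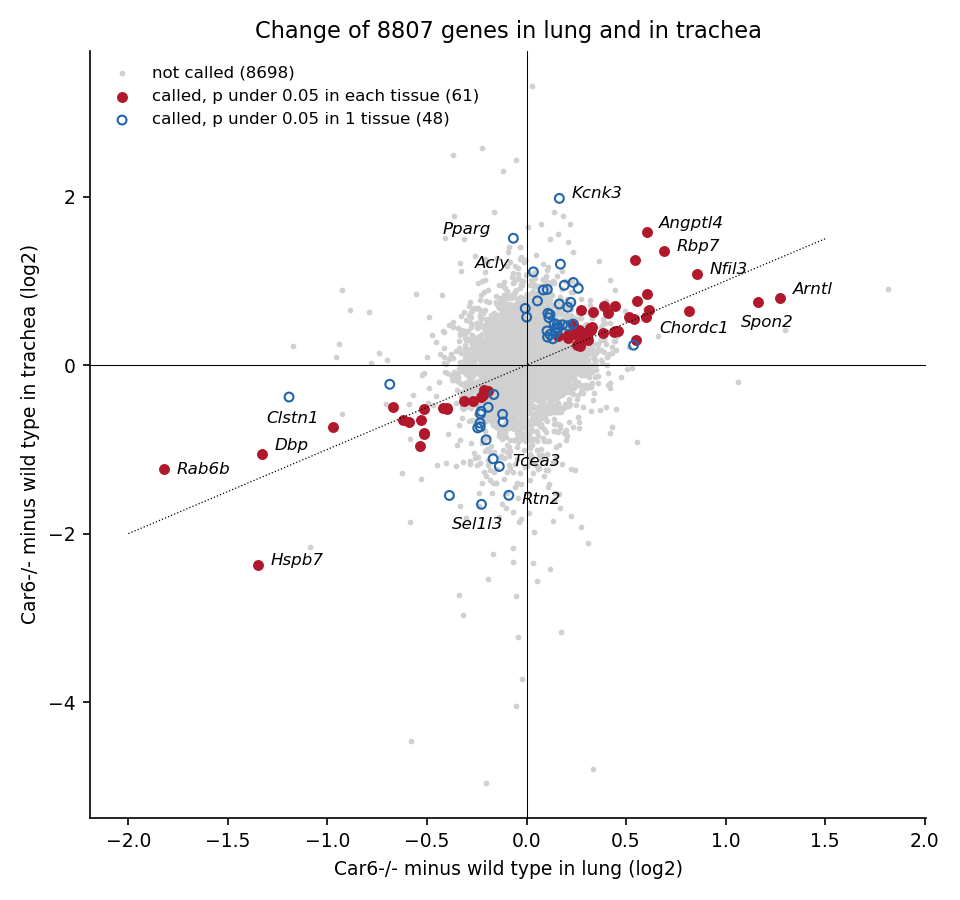
Change in trachea (vertical axis) against change in lung (horizontal axis), both Car6-/- minus wild type in log2, for every gene tested; the axes have different scales and the dotted line marks equal change. The 61 filled points, with p under 0.05 in each tissue, lie away from 0 in both tissues, while most of the 48 open points lie near 0 in lung and away from 0 in trachea.

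Without Car6-/- tracheas 1, 2, 6 and 7 the fit called 8 genes, 3 higher and 5 lower, and all 8 had an unadjusted p under 0.05 in each tissue. Of these, 7 were also called with all samples: Arntl, Spon2, the unnamed probe ILMN_2958159, Tef, Usp2, Hspb7 and Rab6b. The eighth was Ciart. All 109 genes kept the sign of their average change. They were called on these data, and the lungs, wild-type tracheas and other Car6-/- tracheas stay in the fit, which favours a kept sign. Among the 61 genes changed in both tissues, the median size of the change in trachea was 0.51 with all samples and 0.30 without the 4 tracheas, and 58 of them still had an unadjusted p under 0.05 on average. Among the other 48 the median size was 0.64 with all samples and 0.27 without the 4, and 32 had such a p. The lung values, which do not use these tracheas, had median sizes of 0.42 and 0.16 in the 2 sets. The sets were divided by the p in each tissue, lung included, so this difference in lung follows from the split.

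Clock genes were changed in both tissues in opposite directions. Arntl and Nfil3 rose, and Dbp, Tef, Usp2 and Nr1d2 fell. In the core clock list 1 of 12 tested genes was called higher and 1 lower (16.7%), and in the clock output list 1 of 10 was called higher and 3 lower (40%), against 1.24% of all genes. The gene lists here and below were chosen with earlier results of these data known. That choice can raise such shares, so they are descriptive only. The median average change was −0.15 in the core list and 0.01 in the output list, against 0.02 over all genes.

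Arntl ranged from 5.30 to 7.19 with a median of 6.75 in Car6-/- lungs, against 4.74 to 5.74 with a median of 5.13 in wild-type lungs. In trachea Arntl ranged from 6.43 to 7.55 with a median of 6.98 in Car6-/- samples, against 5.31 to 6.47 with a median of 6.18 in wild-type samples. In lung 5 of 6 Car6-/- samples exceeded every wild-type sample, and in trachea 4 of 6. The average change was 1.03 ± 0.17 (SE; adjusted p = 0.0038), from 1.27 in lung and 0.80 in trachea. Without the 4 tracheas it was 1.25 (adjusted p = 0.014).

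Nfil3, whose window shown above also holds the ROR response element, ranged from 6.52 to 8.35 with a median of 7.44 in Car6-/- lungs, against 6.26 to 6.86 with a median of 6.53 in wild-type lungs. In trachea its range was 7.47 to 8.90 with a median of 7.82 in Car6-/- samples, against 6.48 to 8.09 with a median of 6.71 in wild-type samples. In lung 4 of 6 Car6-/- samples exceeded all wild-type samples, but in trachea only 1 did, because wild-type trachea 4 stood at 8.09. Averaged over both tissues the change was 0.97 ± 0.18 (SE; adjusted p = 0.0087). Without the 4 tracheas Nfil3 did not pass (adjusted p = 0.18).

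Dbp, the D-box activator, had the largest fall of the clock genes. It ranged from 9.14 to 12.20 with a median of 10.39 in Car6-/- lungs, against 11.49 to 12.23 with a median of 11.95 in wild-type lungs. In trachea it ranged from 9.73 to 11.61 with a median of 10.38 in Car6-/- samples, against 11.32 to 11.87 with a median of 11.66 in wild-type samples. In each tissue 4 of the 6 Car6-/- samples lay below every wild-type sample, and the other 2 lay within the wild-type range. The mean of the tissue changes was −1.19 ± 0.25 (SE; adjusted p = 0.017), and −1.34 without the 4 tracheas (adjusted p = 0.084).

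Tef, the related activator with an E-box in its window, ranged from 8.72 to 9.97 in Car6-/- lungs (median 9.14), against 9.22 to 10.11 in wild-type lungs (median 9.92). Tracheal values ran from 7.85 to 9.61 in Car6-/- samples (median 8.21), against 8.93 to 9.50 in wild-type samples (median 9.11). The groups overlapped in both tissues. Its average change was −0.63 ± 0.16 (SE; adjusted p = 0.045), and −0.80 without the 4 tracheas (adjusted p = 0.031). A second Tef probe had a change of −0.29 that did not pass (adjusted p = 0.157). The Tef call held in 9 of 28 fits with 1 sample left out.

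Usp2, a deubiquitinase with rhythmic expression, ranged from 6.62 to 7.70 in Car6-/- lungs (median 7.29), against 7.57 to 7.87 in wild-type lungs (median 7.68). In trachea its range was 7.82 to 9.45 in Car6-/- samples (median 8.56), against 9.12 to 9.83 in wild-type samples (median 9.45). In each tissue 5 of 6 Car6-/- samples lay below all wild-type samples. The average change was −0.66 ± 0.13 (SE; adjusted p = 0.0087).

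Nr1d2, the REV-ERBβ gene, ranged from 7.56 to 8.94 in Car6-/- lungs (median 8.31), against 8.62 to 8.94 in wild-type lungs (median 8.73). In trachea the values ran from 7.32 to 8.48 in Car6-/- samples (median 7.93), against 8.10 to 9.04 in wild-type samples (median 8.53). Car6-/- samples were below all wild-type samples in 5 of 6 lungs and 4 of 6 tracheas. Averaged over both tissues the change was −0.59 ± 0.14 (SE; adjusted p = 0.028). Without the 4 tracheas Nr1d2 did not pass (adjusted p = 0.18).

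The remaining clock genes did not pass. The nearest were Nr1d1, which encodes REV-ERBα, with −0.35 (adjusted p = 0.088), and Ciart, a repressor of the CLOCK and BMAL1 complex, with −0.47 (adjusted p = 0.13). The repressors Per2 and Bhlhe40 had changes of −0.41 and −0.32, Clock 0.22 and Per1 0.02. In the output list Pdk4, a kinase that inhibits pyruvate dehydrogenase, had a change of 0.56 (adjusted p = 0.15). Lpin1, Nampt, Coq10b and Avpr1a had average changes between −0.04 and 0.09.

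The Car6-/- samples differed among themselves in the clock genes, and samples 6 and 7 of both tissues lay nearest to wild type. Dbp stood at 11.83 and 12.20 in Car6-/- lungs 6 and 7 and at 9.14 to 10.68 in the other Car6-/- lungs. It stood at 11.61 and 11.52 in Car6-/- tracheas 6 and 7 and at 9.73 to 10.62 in the others. Arntl was lowest in the same samples, at 5.93 and 5.30 in Car6-/- lungs 6 and 7, and at 6.43 and 6.45 in Car6-/- tracheas 6 and 7. Ciart was highest in them, at 6.67 and 7.02 in those lungs and at 5.90 and 6.18 in those tracheas. These 2 samples of each tissue were noticed in the data, and no test was made of them.

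**Figure D2:**
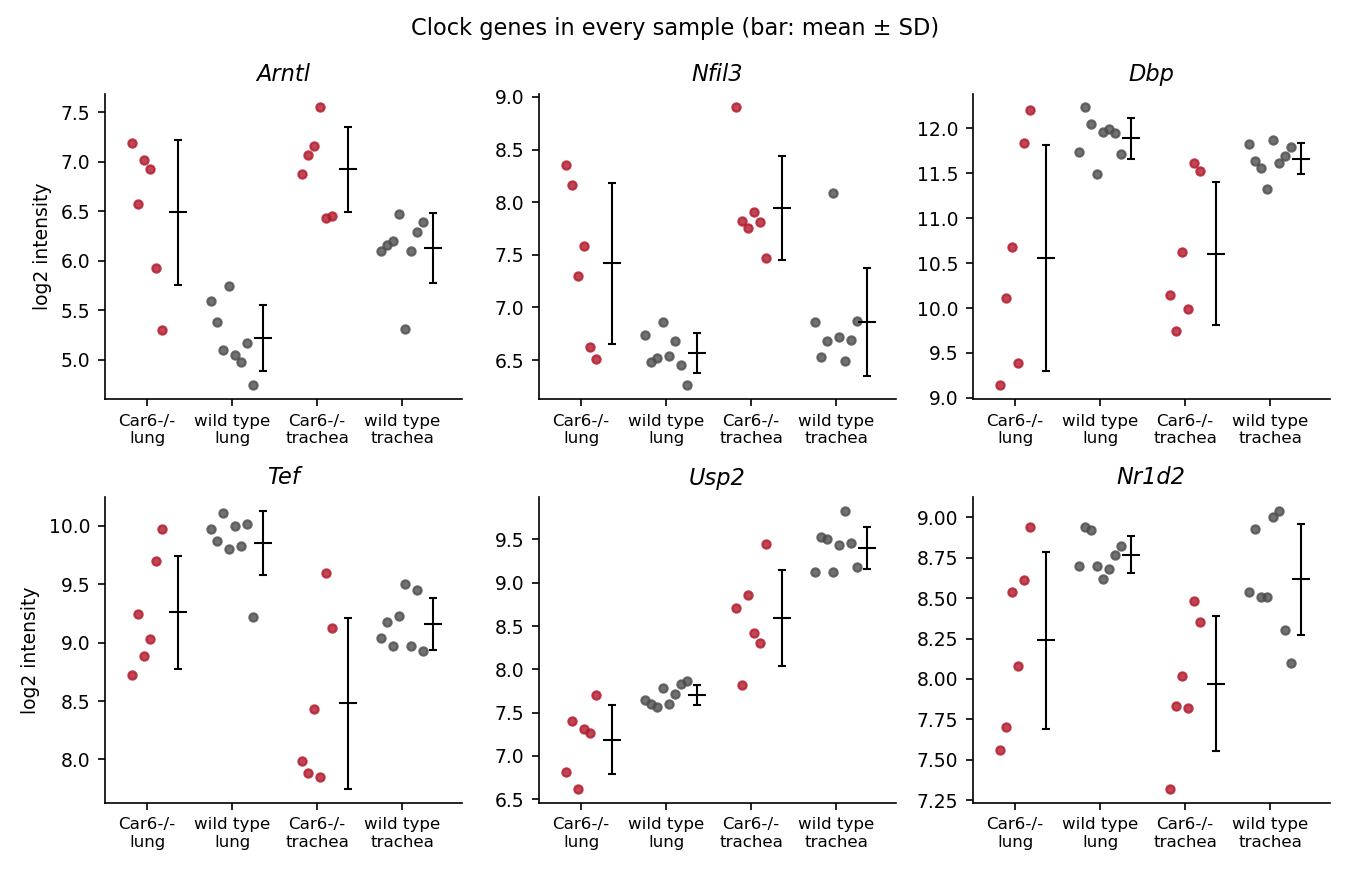
Normalized log2 intensity (vertical axis) of 6 clock genes in every sample, one panel per gene, with Car6-/- samples left of wild-type samples in each tissue; points are samples and bars the mean ± SD. Arntl and Nfil3 are higher and Dbp, Tef, Usp2 and Nr1d2 lower in most Car6-/- samples of both tissues, and a few Car6-/- samples lie within the wild-type range.

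Chaperone genes that heat shock factor is known to control were the next group, and all called members of their list rose. The list does not hold Hspb7, a small heat shock protein gene given below, which was called with −1.86. In the heat shock list 4 of 20 tested genes were called higher and 0 lower (20%), against 0.806% of all genes called higher; the list's median average change was 0.21, against 0.02. At an unadjusted p under 0.05, 10 were higher and 1 lower, against 913 higher and 662 lower of all 8807 genes.

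Chordc1, which encodes a cochaperone of HSP90 and has the 3 overlapping heat shock elements shown above, ranged from 9.23 to 10.31 in Car6-/- lungs (median 9.67), against 8.90 to 9.40 in wild-type lungs (median 9.14). In trachea it ranged from 9.49 to 10.19 in Car6-/- samples (median 9.88), against 8.86 to 9.60 in wild-type samples (median 9.23). Car6-/- samples lay above all wild-type samples in 5 of 6 lungs and 4 of 6 tracheas. The mean of the tissue changes was 0.59 ± 0.10 (SE; adjusted p = 0.0038), from 0.60 in lung and 0.57 in trachea. Without the 4 tracheas it was 0.52 (adjusted p = 0.17).

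Hsph1, the HSP110 nucleotide exchange factor, ranged from 9.47 to 10.39 in Car6-/- lungs (median 9.93), against 8.98 to 10.05 in wild-type lungs (median 9.20). In trachea its range was 9.53 to 10.89 in Car6-/- samples (median 9.98), against 9.00 to 9.97 in wild-type samples (median 9.42). The ranges overlapped in both tissues. Its average change was 0.63 ± 0.15 (SE; adjusted p = 0.031), and 0.42 without the 4 tracheas (adjusted p = 0.60).

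Cacybp, whose product binds calcyclin and E3 ubiquitin ligases, rose by 0.39 ± 0.10 (SE; adjusted p = 0.038), with 0.54 in lung and 0.24 in trachea. It ranged from 5.75 to 6.56 in Car6-/- lungs and from 5.39 to 6.02 in wild-type lungs. Without the 4 tracheas Cacybp did not pass (adjusted p = 0.21), and its call held in 12 of 28 fits with 1 sample left out. Hspa8, the constitutive HSC70 chaperone, rose by 0.22 ± 0.05 (SE; adjusted p = 0.027), with 0.11 in lung and 0.33 in trachea. Its levels were near the top of the scale, 13.34 to 13.71 in Car6-/- tracheas and 12.92 to 13.31 in wild-type tracheas, with no overlap there. Without the 4 tracheas Hspa8 did not pass (adjusted p = 0.51). A second Hspa8 probe had the larger change in lung, 0.50, with 0.13 in trachea. Its average of 0.31 did not pass when every probe was fitted (adjusted p = 0.22).

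Members of the list that did not pass included Stip1, an adaptor between HSP70 and HSP90, with 0.32 (adjusted p = 0.085), the mitochondrial chaperonin Hspd1 with 0.32 (adjusted p = 0.09) and Dnajb1 with 0.40 (adjusted p = 0.12). The inducible Hspa1a had the largest change of the list, 0.86 ± 0.31 (SE; adjusted p = 0.15). The small heat shock protein genes Cryab, Hspb8 and Hspb1, which muscle expresses strongly, had changes of −0.36, −0.13 and −0.18. As a whole the list averaged 8.55 to 8.99 in Car6-/- lungs and 8.46 to 8.67 in wild-type lungs, and 9.01 to 9.20 in Car6-/- tracheas and 8.80 to 9.29 in wild-type tracheas.

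Ahsa2, a homologue of the activator of the HSP90 ATPase, is outside the list and was chosen after its value was seen. It ranged from 5.42 to 5.88 in Car6-/- lungs and from 4.93 to 5.39 in wild-type lungs, with no overlap. Its average change was 0.42 ± 0.09 (SE; adjusted p = 0.013). Cirbp and Crem were also chosen after their values were seen. Cirbp, the cold-inducible RNA-binding protein gene, fell by 0.52 (adjusted p = 0.02), with −0.51 in lung and −0.52 in trachea. Crem, which encodes a modulator of cyclic AMP response elements, rose by 0.43 (adjusted p = 0.021), and its other 2 probes had changes of 0.40 and 0.34.

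Of other stress programmes, the unfolded protein and integrated stress list had 0 of 19 genes called in limma, with 2 higher and 2 lower at an unadjusted p under 0.05. The immediate early list had 0 of 19 called, with 1 higher and 1 lower at that p, against 913 higher and 662 lower of all 8807 genes. In the glucocorticoid list 1 of 16 was called, Angptl4 (6.25%), against 1.24% of all genes, and the median average change was 0.21. Its other members nearest to the threshold were Mt1, a metallothionein gene, with −0.41 (adjusted p = 0.057), and Ddit4, an inhibitor of mTORC1 signalling, with 0.38 (adjusted p = 0.14).

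Of the interferon response list, 3 of 31 tested genes were called higher and 0 lower (9.68%), against 0.806% of all genes called higher. The median average change was 0.19, against 0.02 over all genes, and 30 of the 31 had a positive sign, against 5102 of all 8807 genes. In lung the list's median was 0.04, however, and in trachea 0.32.

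Oas2, an oligoadenylate synthetase that senses double-stranded RNA, ranged from 5.98 to 6.41 in Car6-/- lungs (median 6.26), against 5.44 to 5.86 in wild-type lungs (median 5.74). Tracheal values ran from 5.32 to 6.89 in Car6-/- samples (median 6.01), against 5.14 to 5.98 in wild-type samples (median 5.46). All 6 Car6-/- lungs lay above all wild-type lungs, and 3 of 6 Car6-/- tracheas above all wild-type tracheas. The average change was 0.54 ± 0.12 (SE; adjusted p = 0.021), and 0.37 without the 4 tracheas (adjusted p = 0.36).

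Bst2, the membrane protein tetherin that holds budding virus at the cell surface, ranged from 8.62 to 9.48 in Car6-/- lungs (median 9.28), against 8.14 to 9.15 in wild-type lungs (median 8.74). In trachea its range was 7.19 to 8.08 in Car6-/- samples (median 7.74), against 6.48 to 7.55 in wild-type samples (median 7.28). In each tissue 4 of 6 Car6-/- samples exceeded every wild-type sample. Averaged over both tissues the change was 0.54 ± 0.13 (SE; adjusted p = 0.036), with 0.54 in each tissue, and 0.34 without the 4 tracheas (adjusted p = 0.71).

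Ifi27, an interferon-induced mitochondrial protein gene, rose by 0.41 ± 0.10 on average (SE; adjusted p = 0.033), with 0.06 in lung and 0.76 in trachea. It ranged from 11.80 to 13.13 in Car6-/- tracheas and from 11.71 to 12.09 in wild-type tracheas, and its change without the 4 tracheas was 0.11 (adjusted p = 0.87). The transcription factor genes Stat2 and Irf9 each had a change of 0.23 and did not pass (adjusted p = 0.10 for each). Beside the interferon genes, T and NK cell genes (13 tested) averaged 6.21 to 9.52 in Car6-/- tracheas and 5.81 to 8.75 in wild-type tracheas, and B cell genes averaged 5.82 to 9.63 in Car6-/- tracheas and 5.49 to 6.57 in wild-type tracheas. In lung the T and NK cell genes averaged 6.68 to 7.14 in Car6-/- samples and 6.75 to 7.00 in wild-type samples. The part of these cells in the interferon result was not tested.

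In the MHC class I list 1 of 16 genes was called higher, against 0.806% of all genes, namely H2-Q8, with 0.61 ± 0.16 (SE; adjusted p = 0.046). All 16 had a positive average change, against 5102 of all 8807 genes. The list's median change was 0.05 in lung, however, and 0.41 in trachea. The change in H2-Q8 was 0.23 in lung and 0.98 in trachea, and on average 0.23 without the 4 tracheas (adjusted p = 0.80). The H2-Q8 call held in 6 of 28 fits with 1 sample left out. Genes of this family are near-identical in sequence, so that its probe may also have bound transcripts of its relatives. H2-Q7, H2-D1 and Nlrc5, the transactivator of class I genes, had changes of 0.30, 0.29 and 0.47 and did not pass.

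**Figure D3:**
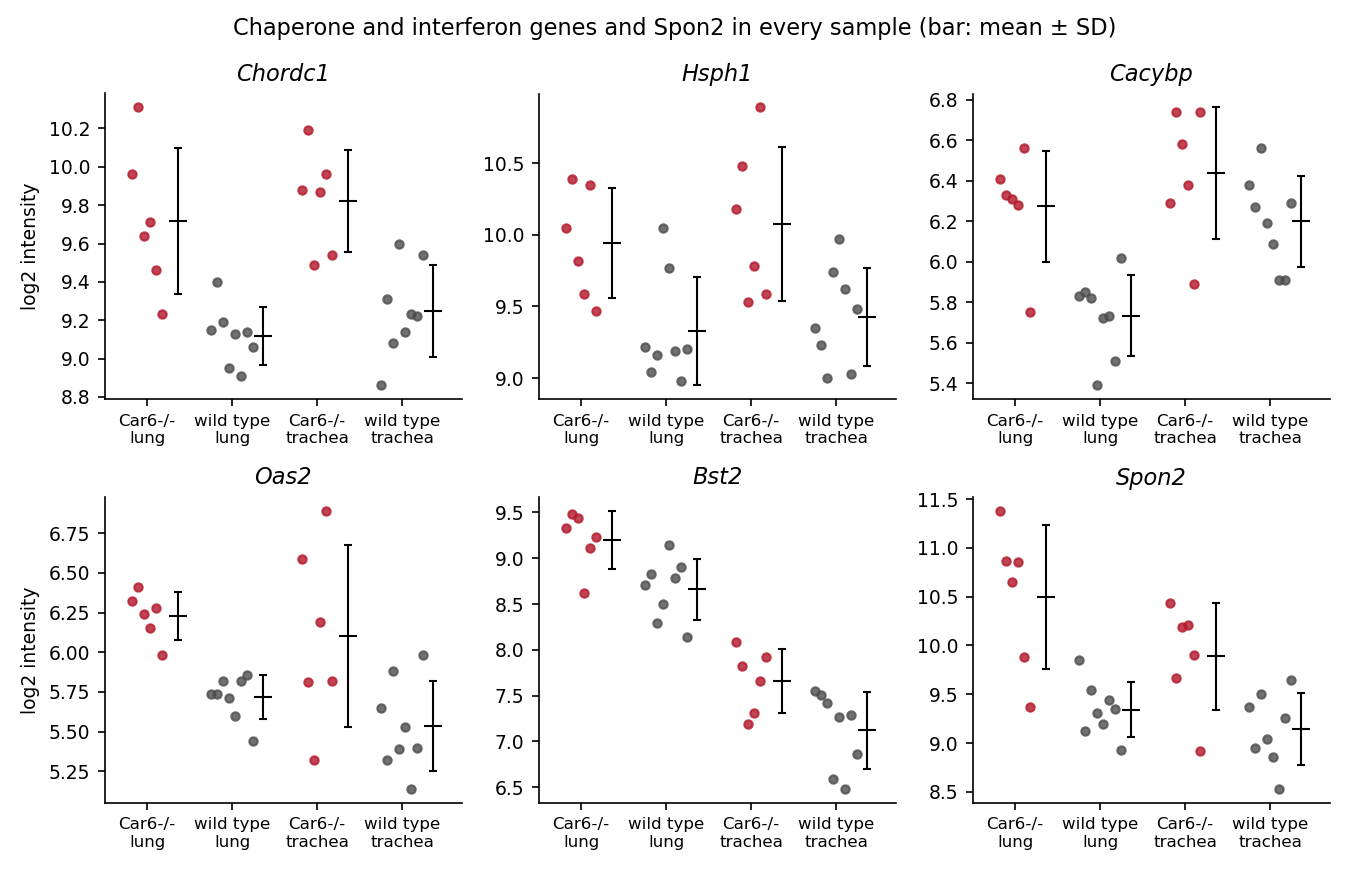
Normalized log2 intensity (vertical axis) of Chordc1, Hsph1, Cacybp, Oas2, Bst2 and Spon2 in every sample, with Car6-/- samples left of wild-type samples in each tissue; points are samples and bars the mean ± SD. All 6 Car6-/- lungs lie above all wild-type lungs for Oas2, and the other panels show partial overlap in each tissue.

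Genes around Car6 on chromosome 4 changed in both directions. Among genes up to 75 positions from Car6 in the order of the RefSeq annotation, 6 of 42 tested were called (14.3%), 3 higher and 3 lower, against 1.24% of all genes. At 76 to 150 positions 0 of 27 were called, at 151 to 300 positions 2 of 25 (8%), at 301 to 600 positions 1 of 79 (1.27%), and beyond 600 positions 2 of 345 (0.58%). Chromosome 4 as a whole had 11 called of 518 tested (2.12%), while chromosomes 5, 9 and 15 had 2.09%, 2.08% and 2.59%. The median average change of the genes within 75 positions was 0.02, against 0.02 over all genes.

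The called genes near Car6 have different functions. Rbp7, a cellular retinol-binding protein gene 24 positions from Car6, ranged from 6.24 to 7.87 in Car6-/- lungs (median 6.67), against 5.62 to 6.99 in wild-type lungs (median 6.16). In trachea the values ran from 8.93 to 9.85 in Car6-/- samples (median 9.39), against 7.41 to 8.94 in wild-type samples (median 7.89). In trachea 5 of 6 Car6-/- samples lay above all wild-type samples, but in lung only 1 did. The mean of the tissue changes was 1.02 ± 0.17 (SE; adjusted p = 0.0038). Without the 4 tracheas Rbp7 did not pass (adjusted p = 0.18).

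Clstn1, the calsyntenin gene 16 positions from Car6, ranged from 5.76 to 7.08 in Car6-/- lungs (median 6.88), against 6.99 to 8.00 in wild-type lungs (median 7.64). In trachea its range was 5.47 to 6.42 in Car6-/- samples (median 6.03), against 6.35 to 6.94 in wild-type samples (median 6.75). Car6-/- samples were below every wild-type sample in 4 of 6 lungs and 5 of 6 tracheas. Its average change was −0.85 ± 0.15 (SE; adjusted p = 0.0038). Without the 4 tracheas Clstn1 did not pass (adjusted p = 0.21).

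Agtrap, which encodes a protein that binds the angiotensin II receptor, fell by 0.59 ± 0.11 (SE; adjusted p = 0.0087), and Fbxo44, an F-box gene, by 0.64 ± 0.16 (SE; adjusted p = 0.046). The Fbxo44 probe was above background in 3 of 6 Car6-/- lungs and 3 of 6 Car6-/- tracheas, against 8 of 8 wild-type samples of each tissue, and its change without the 4 tracheas was −0.31 (adjusted p = 0.72). Plod1, a collagen lysyl hydroxylase, rose by 0.42 ± 0.10 (SE; adjusted p = 0.032). Neither Agtrap nor Plod1 passed without the 4 tracheas (adjusted p = 0.27 and 0.45). Spsb1, the called gene nearest to Car6 at 9 positions, rose by 0.29 ± 0.07 (SE; adjusted p = 0.047), with 0.00 in lung and 0.57 in trachea, and 0.18 on average without the 4 tracheas (adjusted p = 0.63).

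Hspb7 and Arhgef19 lie 270 and 279 positions from Car6. Hspb7 is a small heat shock protein gene of heart and skeletal muscle. It ranged from 4.35 to 5.96 in Car6-/- lungs (median 5.03), against 5.15 to 7.69 in wild-type lungs (median 6.57), and was above background in 3 of the 6 Car6-/- lungs and 4 of the 6 Car6-/- tracheas, against all wild-type samples. In trachea it ranged from 4.33 to 8.59 in Car6-/- samples (median 6.41), against 7.98 to 10.00 in wild-type samples (median 8.89). In each tissue 4 of 6 Car6-/- samples lay below all wild-type samples. The average change was −1.86 ± 0.37 (SE; adjusted p = 0.011), and −1.90 without the 4 tracheas (adjusted p = 0.014). Signals at background in the Car6-/- samples limit how exactly the size of this change is known.

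Beside Hspb7, skeletal muscle genes averaged 6.17 to 9.47 in Car6-/- lungs and 6.33 to 8.21 in wild-type lungs, and cardiac muscle genes (8 tested) 8.23 to 9.92 in Car6-/- lungs and 7.50 to 11.19 in wild-type lungs. In trachea the cardiac genes averaged 8.47 to 12.66 in Car6-/- samples and 8.46 to 9.27 in wild-type samples. The part of muscle in the change of Hspb7 was not tested. Arhgef19, which encodes an exchange factor for RhoA, ranged from 4.80 to 6.70 in Car6-/- tracheas and from 6.84 to 7.59 in wild-type tracheas, with no overlap. Its average change was −0.75 ± 0.15 (SE; adjusted p = 0.0089), with −0.53 in lung. Without the 4 tracheas Arhgef19 did not pass (adjusted p = 0.074).

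Farther along the chromosome, Tcea3, a transcription elongation factor gene 428 positions away, fell by 0.67 ± 0.13 (SE; adjusted p = 0.0087), with −0.14 in lung and −1.20 in trachea. Without the 4 tracheas Tcea3 did not pass (adjusted p = 0.45). Phc2, a polycomb gene, and Trim62, a ubiquitin ligase gene, lie 702 and 694 positions away and were chosen after their values were seen. Phc2 rose by 0.34 (adjusted p = 0.038) and Trim62 fell by 0.35 (adjusted p = 0.03).

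**Figure D4:**
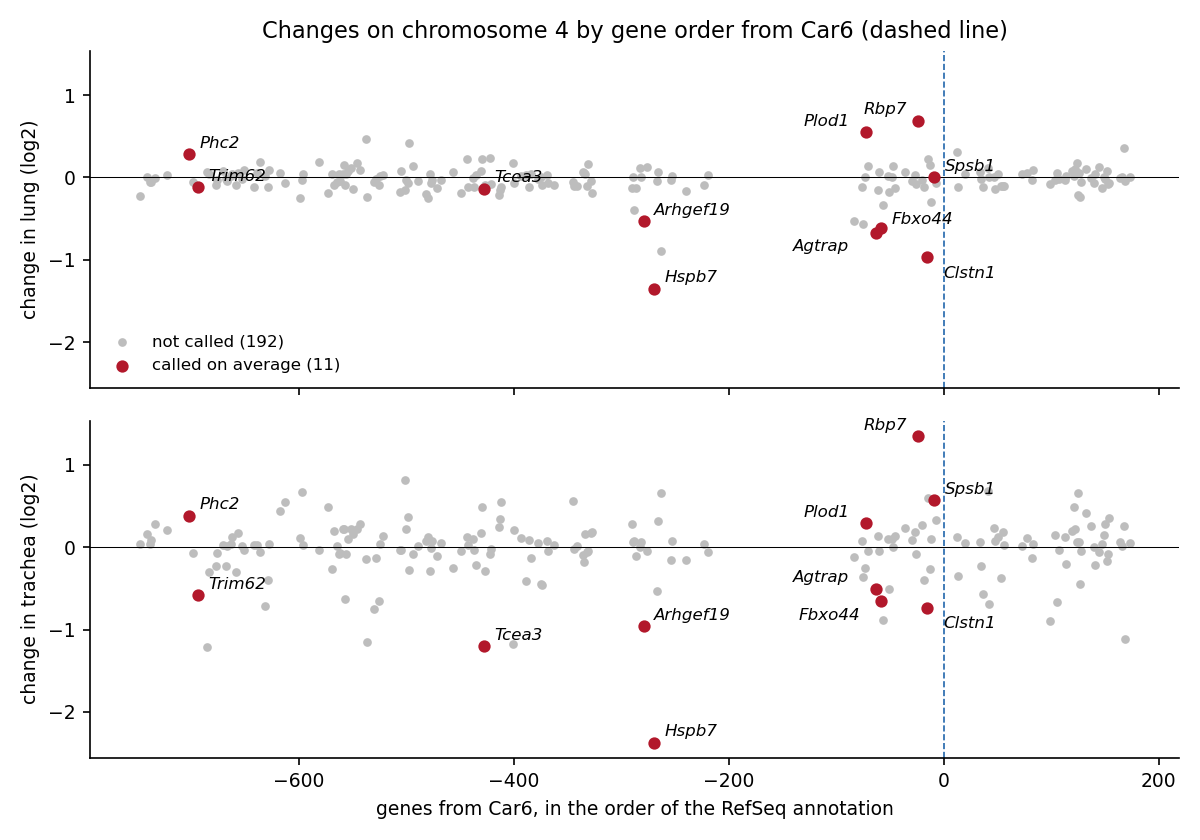
Change in lung (upper panel) and in trachea (lower panel), Car6-/- minus wild type in log2, by position in gene order from Car6 (dashed line), for tested genes on the end of chromosome 4 that holds Car6. The 11 called genes are labelled, and 6 of them lie within 75 positions of Car6, 3 higher and 3 lower on average.

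The largest changes outside these groups were not all shared by the tissues. Rab6b, a Rab GTPase gene of Golgi traffic, is the first of these. It ranged from 6.01 to 6.92 in Car6-/- lungs (median 6.17), against 6.56 to 8.75 in wild-type lungs (median 8.54). Tracheal values ran from 4.45 to 6.38 in Car6-/- samples (median 4.60), against 4.67 to 7.16 in wild-type samples (median 6.62), and the probe was above background in 2 of the 6 Car6-/- tracheas and 6 of the 8 wild-type tracheas. In lung 5 of 6 and in trachea 4 of 6 Car6-/- samples lay below every wild-type sample. Averaged over both tissues the change was −1.53 ± 0.29 (SE; adjusted p = 0.0087), and −1.77 without the 4 tracheas (adjusted p = 0.046).

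The smallest p belonged to the unnamed probe ILMN_2958159. It ranged from 9.17 to 9.47 in Car6-/- lungs (median 9.29), against 8.53 to 9.05 in wild-type lungs (median 8.67). In trachea the values ran from 10.92 to 12.33 in Car6-/- samples (median 11.83), against 10.20 to 10.96 in wild-type samples (median 10.40). The lungs did not overlap, and in trachea 5 of 6 Car6-/- samples lay above all wild-type samples. The mean of the tissue changes was 0.89 ± 0.11 (SE; adjusted p = 0.00017), and 0.56 without the 4 tracheas (adjusted p = 0.014).

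Spon2, which encodes a secreted matrix protein of innate immunity, ranged from 9.37 to 11.38 in Car6-/- lungs (median 10.76), against 8.93 to 9.85 in wild-type lungs (median 9.33). In trachea it ranged from 8.92 to 10.44 in Car6-/- samples (median 10.05), against 8.53 to 9.65 in wild-type samples (median 9.15). In each tissue 5 of 6 Car6-/- samples lay above all wild-type samples, with sample 7 the exception in both. Its average change was 0.95 ± 0.18 (SE; adjusted p = 0.0087), and 1.11 without the 4 tracheas (adjusted p = 0.03).

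Angptl4, a secreted inhibitor of lipoprotein lipase, rose most of all called genes, by 1.09 ± 0.19 (SE; adjusted p = 0.0043). It ranged from 9.93 to 11.06 in Car6-/- lungs (median 10.59), against 9.24 to 10.80 in wild-type lungs (median 9.87). Tracheal values ran from 9.01 to 10.86 in Car6-/- samples (median 10.19), against 8.04 to 9.47 in wild-type samples (median 8.37). Only 1 Car6-/- lung, but 5 of 6 Car6-/- tracheas, lay above all wild-type samples of the tissue. Without the 4 tracheas the change was 0.68 (adjusted p = 0.30).

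Further genes that changed in both tissues included Xlr4a, an X-linked gene of lymphoid tissue, with 0.73 ± 0.16 (SE; adjusted p = 0.022), and Rasl11a, a Ras-like gene, with 0.73 ± 0.17 (SE; adjusted p = 0.026). Rasl11a was above background in all Car6-/- tracheas but in 3 of 8 wild-type tracheas. Sh3rf2, which encodes a RING domain protein, fell by 0.67 ± 0.16 (SE; adjusted p = 0.033), and its second probe by 0.64. The Sh3rf2 call held in 18 of 28 fits with 1 sample left out. None of the 3 passed without the 4 tracheas: Xlr4a had 0.82 (adjusted p = 0.18), Rasl11a 0.55 (adjusted p = 0.34) and Sh3rf2 −0.42 (adjusted p = 0.64). Pdlim7, a PDZ and LIM domain protein gene, and Bcl3, a regulator of NF-κB, were chosen after their values were seen. Pdlim7 rose by 0.48 (adjusted p = 0.0038) and Bcl3 by 0.57 (adjusted p = 0.021).

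Among genes of fatty acid and fat storage metabolism, Elovl6, Acly and Pparg were called on average with larger changes in trachea than in lung, while Angptl4, given above, changed in both tissues. In the fatty acid synthesis list 2 of 16 tested genes were called higher (12.5%), Elovl6 and Acly, against 0.806% of all genes called higher. The list's median change was −0.04 in lung and 0.73 in trachea. In the fatty acid oxidation list 1 of 20 was called, Angptl4 (5%), which the glucocorticoid list also holds. The oxidation list's medians were −0.01 in lung and 0.57 in trachea. In the adipocyte list 1 of 12 was called, Pparg (8.33%), with medians of −0.18 in lung and 0.87 in trachea.

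Elovl6, a fatty acid elongase, ranged from 8.89 to 10.78 in Car6-/- tracheas (median 10.07), against 8.04 to 9.04 in wild-type tracheas (median 8.81). In lung it ranged from 5.58 to 6.12 in Car6-/- samples (median 5.92), against 5.38 to 6.05 in wild-type samples (median 5.68). The lungs overlapped almost fully, while 5 of 6 Car6-/- tracheas lay above all wild-type tracheas. The average change was 0.68 ± 0.15 (SE; adjusted p = 0.019).

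Acly, which makes cytosolic acetyl-CoA from citrate, rose by 0.57 ± 0.14 (SE; adjusted p = 0.032), with 0.03 in lung and 1.11 in trachea. Pparg, the transcription factor of fat cell differentiation, rose by 0.72 ± 0.18 (SE; adjusted p = 0.045), with −0.07 in lung and 1.51 in trachea. The Pparg call held in 5 of 28 fits with 1 sample left out. Scd1 and Acaca, enzymes of the same route, had average changes of 0.42 and 0.62 and did not pass (adjusted p = 0.074 and 0.075). Cidea, Lipe and Pnpla2, genes of lipid droplets and lipolysis, had 0.80, 0.54 and 0.40 (adjusted p = 0.12 for each).

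The fatty acid synthesis genes averaged 8.74 to 10.18 in Car6-/- tracheas and 8.65 to 9.03 in wild-type tracheas, and moved with the adipocyte score given above. In lung the adipocyte genes averaged 6.65 to 8.08 in Car6-/- samples and 7.01 to 8.45 in wild-type samples. Without the 4 Car6-/- tracheas with high adipocyte scores, none of the called fat genes passed: Elovl6 had an average change of 0.28 (adjusted p = 0.65), Acly 0.09 (adjusted p = 0.92) and Pparg 0.11 (adjusted p = 0.93). Acaca and Cidea then had average changes of −0.01 and −0.04. Pparg and Cidea are themselves members of the adipocyte score by which these tracheas were picked, so a smaller change follows from the choice. Few Car6-/- tracheas remain in that fit, which makes passing harder for every gene. The part of fat cells in these changes was not tested.

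**Figure D5:**
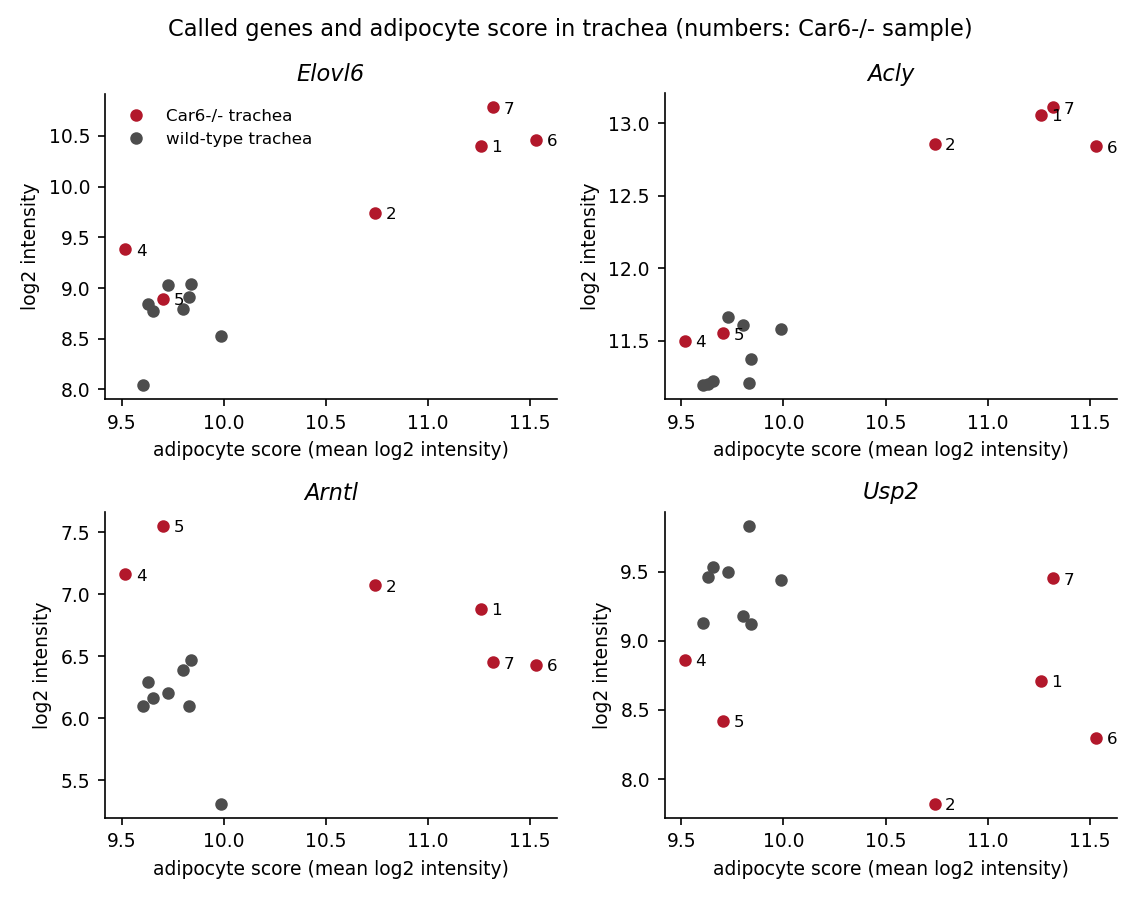
Normalized log2 intensity of Elovl6, Acly, Arntl and Usp2 (vertical axes) against the adipocyte score (horizontal axes, the mean log2 intensity of 12 genes) in Car6-/- and wild-type tracheas, with Car6-/- samples numbered. For Elovl6 and Acly the Car6-/- tracheas with high adipocyte scores (1, 2, 6 and 7) are also highest, while Car6-/- tracheas 4 and 5 are among the highest for Arntl.

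Kcnk3, a potassium channel gene, had the largest increase of a called gene in trachea, 1.98, with 0.17 in lung and an average of 1.07 ± 0.23 (SE; adjusted p = 0.021). It ranged from 5.31 to 8.46 in Car6-/- tracheas (median 7.71), against 4.75 to 5.73 in wild-type tracheas (median 5.18). In trachea 4 of 6 Car6-/- samples lay above all wild-type samples. Kcnk3 is a gene of heart, vessel muscle and brown fat, and cardiac and adipocyte scores are given above. Without the 4 tracheas its average change was 0.22 (adjusted p = 0.77).

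Of the matrix list, 3 of 23 tested genes were called higher (13%), Eln, Plod1 and Loxl1, against 0.806% of all genes, and its median average change was 0.06. Eln, the elastin gene, ranged from 8.27 to 9.69 in Car6-/- lungs (median 9.20), against 8.28 to 9.00 in wild-type lungs (median 8.54). In trachea the values ran from 8.05 to 9.38 in Car6-/- samples (median 8.84), against 7.47 to 8.59 in wild-type samples (median 7.89). Car6-/- samples exceeded every wild-type sample in 5 of 6 lungs and 4 of 6 tracheas, and the average change was 0.66 ± 0.15 (SE; adjusted p = 0.028). Without the 4 tracheas it was 0.33 (adjusted p = 0.75).

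Loxl1, a lysyl oxidase that crosslinks elastin, rose by 0.34 ± 0.08 (SE; adjusted p = 0.033), with 0.27 in lung and 0.41 in trachea. Without the 4 tracheas Loxl1 did not pass (adjusted p = 0.64). Collagen genes did not pass. Col1a1, Col1a2 and Col3a1 had average changes of −0.01, −0.04 and −0.10, and Serpinh1, the collagen chaperone, had 0.39 (adjusted p = 0.13). In the smooth muscle list 1 of 12 was called, Tagln (8.33%), against 1.24% of all genes. Tagln rose by 0.50 ± 0.12 (SE; adjusted p = 0.037), from 0.10 in lung and 0.90 in trachea. Without the 4 tracheas its average change was 0.08 (adjusted p = 0.93). Acta2, Myocd and Mylk had 0.36, 0.64 and 0.45 and did not pass. The smooth muscle genes averaged 9.07 to 9.93 in Car6-/- tracheas and 8.78 to 9.31 in wild-type tracheas, and 8.92 to 9.30 in Car6-/- lungs and 8.90 to 9.26 in wild-type lungs. Their part in the changes of Eln and Loxl1 was not tested.

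The decreases seen mainly in trachea included Tex11, a meiosis gene on chromosome X, with −0.97 ± 0.22 (SE; adjusted p = 0.028), and Sel1l3 with −0.94 ± 0.24 (SE; adjusted p = 0.045). Rtn2, a reticulon gene of muscle, had −0.82 ± 0.20 (SE; adjusted p = 0.038), with −0.09 in lung and −1.55 in trachea. Slc25a12, the mitochondrial aspartate and glutamate carrier gene, had −0.64 ± 0.14 (SE; adjusted p = 0.022), with −0.17 in lung and −1.11 in trachea. Tex11 was above background in 3 of 6 Car6-/- tracheas and in all wild-type tracheas. Without the 4 tracheas Tex11 had −0.31, Sel1l3 −0.27 (adjusted p = 0.90), Rtn2 −0.31 and Slc25a12 −0.30, and none of them passed. The Sel1l3 call held in 4 of 28 fits with 1 sample left out. The skeletal muscle list had 0 of 18 genes called in limma, with 0 higher and 6 lower at an unadjusted p under 0.05. Of all 8807 genes, 913 were higher and 662 lower at that p. The muscle list's median change was 0.02 in lung and −1.27 in trachea. The unnamed probe ILMN_3023451 went the other way, with −1.19 in lung and −0.38 in trachea. Its 6 Car6-/- lungs, at 5.70 to 7.57, lay below all wild-type lungs, at 7.62 to 8.32.

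No other carbonic anhydrase gene passed. Of 12 on the array, 7 were tested, with a median average change of 0.04, 0 calls in limma, and 2 higher and 0 lower at an unadjusted p under 0.05. Of all 8807 genes, 913 were higher and 662 lower at that p. Car4, the membrane-bound form of lung capillaries, had an average change of 0.47 ± 0.20 (SE; adjusted p = 0.21). Its values overlapped in lung, at 10.35 to 10.92 in Car6-/- samples and 10.39 to 10.79 in wild-type samples. In trachea Car4 ranged from 6.04 to 8.85 in Car6-/- samples and from 6.00 to 6.78 in wild-type samples. Endothelial genes averaged 7.91 to 9.32 in Car6-/- tracheas and 7.84 to 8.26 in wild-type tracheas, and their highest scores, like those of the alveolar type 2 genes given above, were in Car6-/- tracheas 1 and 2, which were also highest for Car4. The part of these cells in the Car4 values was not tested. The mitochondrial Car5b had 0.26, the cytosolic Car2, Car3 and Car13 had 0.04, 0.04 and −0.24, and the membrane form Car14 had −0.02. Car11, a related protein without enzyme activity, had −0.15, with −0.44 in lung and 0.13 in trachea. In lung 5 of 6 Car6-/- samples lay below all wild-type samples for Car11.

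The genes with the smallest p for a difference between the tissues did not pass (adjusted p = 0.201 at the lowest). Exoc3l4 had a change of 0.32 in lung and −0.54 in trachea, and Tmc7, a transmembrane channel-like gene, had 0.42 in lung and −0.81 in trachea. Smoc1, a secreted calcium-binding matrix protein gene, had −0.33 in lung and 1.11 in trachea. Tcte3 had −0.18 in lung and 0.55 in trachea, and Aatk, a kinase gene, −0.07 in lung and 1.10 in trachea. These genes are described for their values only.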

How the data were processed

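Gene expression was measured in 28 samples on 32 Illumina bead arrays. Probe intensity was deposited by the authors, 1 mean signal per probe and array, in a table with no normalization between arrays, and beside each signal, per the file headers, a detection p-value against the negative control beads. A second table deposited by the authors holds normalized log2 values and served as an alternative. The sources used here do not give the scanner software, the normalization method or the slides, and the number of arrays limits the precision.

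Background was corrected with normexp (limma's nec, offset 16), and all arrays were then quantile normalized together and taken to log2, in R 4.3.3 with limma 3.58.1. Second arrays were averaged with the first. Probes with a detection p under 0.01 in at least 6 samples of each tissue were kept, with the probe of highest mean for each symbol. Of the 25697 probes, 23978 carried 1 gene symbol and 1719 none, and genes of 23962 named probes were in the RefSeq tables (GRCm38.p6), used for gene order and promoters.

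A linear model of the 4 groups was fitted (lmFit and eBayes) and the average, the change in each tissue and their difference taken as contrasts. Every adjusted p in the text is limma's, adjusted by Benjamini-Hochberg over all genes tested. The procedure was tested on simulated data. Over all genes, lung and trachea samples with the same number did not all deviate together, since 14 pairs had correlations of −0.178 to 0.121, so numbers were not used as pairs. A correlation over all genes does not show whether single genes, such as the clock genes, deviate together. A list's score is the mean log2 intensity of its tested members in a sample.

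Named are Car6, in each direction the 15 called genes whose change was largest, up to 4 members with the smallest p of each list described, the detected carbonic anhydrases, and 3 genes in each direction with the smallest p for a difference between tissues; others are given as chosen after their values were seen or as members of a list. Called genes whose promoter window holds an element are named as well. The genes and the 40 lists were chosen with earlier results of these data known. Alternatives changed the normalization, background, detection filter, arrays, probes, sample weights, variance model and block, and left out each sample in turn.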

Additional observations from a re-analysis of the deposited data

Results flagged for a closer look

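In 23 of 296 pairs of a named gene and a group, 1 sample stood apart from the others by Dixon's criterion, which chance meets in about 1 in 20 groups. Car6-/- lung 7 stood apart in 5 genes. It was high for Slc25a12 (7.00), Car11 (5.57) and Nlrc5 (6.86), and low for Cacybp (5.75) and Loxl1 (10.81). Among the other Car6-/- lungs, lung 4 was high for Xlr4a (9.26), lung 2 low for Agtrap (7.68) and lung 5 low for Pnpla2 (10.06). Car6-/- trachea 1 was high for Nfil3 (8.90) and Rab6b (6.38).

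Wild-type trachea 4 was high for Nfil3 (8.09), Car3 (12.28) and Car14 (7.38), which lowers the count of Car6-/- tracheas that lie above every wild-type trachea for Nfil3. Wild-type trachea 3 was high for Angptl4 (9.47) and low for Tmc7 (6.18). Wild-type tracheas 1, 5, 6 and 7 were low for Ciart (5.11), Arntl (5.31), Loxl1 (9.67) and Slc25a20 (9.49), one gene each. Wild-type lung 8 was low for Tef (9.22), lung 3 high for Car14 (8.00), and lung 7 high for Acaca (9.71) and Pdk4 (8.28).

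For Tmc7 every Car6-/- lung lay above the wild-type mean and every Car6-/- trachea below it, and the change in lung minus that in trachea was 1.23. For Smoc1 every Car6-/- lung lay at or below the wild-type mean and every Car6-/- trachea above it, and the same difference was −1.44. The test of these differences over all genes did not pass, with an adjusted p of 0.201 at the lowest.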

How the results depend on the processing

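Of the 109 calls, 42 held in all 13 processing alternatives, 41 with each sample left out in turn, and 36 in both. Calls that held in 14 or fewer of the 28 fits with 1 sample left out included Fbxo44, Rtn2 and Spsb1. These held in 7 fits each, Tagln in 10 and Bst2 in 14. No called gene changed sign, and these fits used all or most of the same samples, which favours a kept sign. Counts moved with the processing as follows. Median scaling called 118 genes higher and 25 lower. Without a detection filter 40 were higher and 21 lower, 61 in all, among more genes tested. With sample weights 147 were higher and 86 lower, 233 in all, and 7 genes differed between the tissues. With first arrays only, 1 gene had no overlap in either tissue. A random replicate block called 146 genes (93 higher, 53 lower) and a fixed replicate block 106 (55 higher, 51 lower), with 67 and 53 genes changed in both tissues. Leaving out 1 sample gave 48 to 825 calls, with 32 to 490 higher and 16 to 335 lower, 33 to 92 changed in both tissues, 0 to 502 that differed between the tissues and 0 to 2 with no overlap. Calls numbered 825 without Car6-/- trachea 4 and 442 without Car6-/- trachea 5. They numbered 51 without Car6-/- trachea 1, 48 without Car6-/- trachea 2, 66, 53 and 68 without Car6-/- lungs 1, 2 and 4, 72 without wild-type lung 5 and 64 without wild-type trachea 6. Without Car6-/- tracheas 1, 2 and 6, the 3 with the lowest skeletal muscle scores, 4 genes were called (2 higher, 2 lower, 4 in both tissues): Arntl, Arhgef19, Rab6b and ILMN_2958159. Without Car6-/- tracheas 1, 2, 6 and 7, 8 were called (3 higher, 5 lower, 8 in both). Without Car6-/- lung 5 and wild-type lung 6, 38 were called (27 higher, 11 lower, 27 in both), 37 of them as with all samples. These 3 settings were chosen after seeing the data and test fewer samples.

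None of the genes that reversed sign was called. Car3 had −0.0496 with the fixed replicate block, −0.0975 without 3 tracheas, −0.277 without 4, −0.0550 without the 2 lungs, and −0.165 to 0.281 with 1 sample left out. Car14 had 0.0150 with the fixed replicate block, 0.0161 with sample weights and −0.0755 to 0.0322 with 1 sample left out, and Car2 had −0.0166 to 0.0964. Without 3 tracheas Car4 had −0.00198 and Car13 0.0199. Without 4 tracheas Smoc1 had −0.0491, Car4 −0.115, Acaca −0.00571, Slc25a20 −0.0221, Etfb −0.00467, Cidea −0.0409, Pnpla2 −0.000551 and H2-D1 −0.00483. The cause of these moves was not tested. Signals near background limit low probes, and the Car6-/- tracheas' spread limits what trachea can show.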

Other observations

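Of the endothelial list 0 of 20 genes were called in limma, with 10 higher and 0 lower at an unadjusted p under 0.05, and the median change was 0.05 in lung and 0.46 in trachea. Of all 8807 genes, 913 were higher and 662 lower at that p. Mcam, an adhesion molecule of vessel walls, was chosen after its value was seen. It rose by 0.59 ± 0.12 on average (SE; adjusted p = 0.017), and its other 2 probes had 0.58 and 0.51; without Car6-/- tracheas 1, 2, 6 and 7 it had 0.23 (adjusted p = 0.63). Timm10 and Timm9, genes of mitochondrial import chosen after their values were seen, had average changes of 0.30 (adjusted p = 0.037) and 0.25 (adjusted p = 0.038). Timm10 had 0.15 in lung and 0.45 in trachea, and Timm9 0.10 in lung and 0.41 in trachea. In the respiratory chain list 0 of 36 genes were called, with a median of 0.07 and 0 higher and 2 lower at an unadjusted p under 0.05. Batf, Jak3 and Ifngr1 were also chosen after their values were seen. Batf had 0.46 in lung and 0.40 in trachea (adjusted p = 0.029 on average), Jak3 0.16 in lung and 0.72 in trachea (adjusted p = 0.029), and Ifngr1 0.12 in lung and 0.60 in trachea (adjusted p = 0.038). Without Car6-/- tracheas 1, 2, 6 and 7 their average changes were 0.43, 0.21 and 0.22, and none passed. B cell genes averaged 5.82 to 9.63 in Car6-/- tracheas and 5.49 to 6.57 in wild-type tracheas, and the part of lymphocytes in these changes was not tested.

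The following 8 lists gave 0 calls in limma. Ciliated cell genes had a median average change of 0.09 (15 tested), club and airway secretory genes −0.22 (14 tested), alveolar type 1 genes 0.01 (10 tested) and alveolar type 2 genes 0.05 (11 tested). At an unadjusted p under 0.05 these lists had 0, 0, 1 and 3 genes higher, and 1, 3, 0 and 0 lower. Cholesterol synthesis genes had a median of −0.00 (15 tested), glycolysis genes −0.07 (17 tested), proliferation genes −0.01 (17 tested) and xenobiotic and redox genes 0.00 (32 tested). At the same p these had 3, 1, 0 and 2 genes higher, and 0, 4, 0 and 2 lower. Of all 8807 genes, 913 were higher and 662 lower at that p.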
